A study of Mus musculus with 12 samples.

Results

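The mRNAs described here encode zinc finger proteins named Zfp in mouse, measured in heavy and light polysome pools of liver. The members were the protein-coding genes whose symbol is Zfp followed by digits and whose raw counts averaged at least 10 over the 12 libraries. The tables held 360 protein-coding genes with such a symbol among 27179 gene IDs, and 106 of the 360 reached that mean. The choice used the counts, so that a member's presence above the threshold is not a result. Just inside it lay Zfp526, Zfp182 and Zfp235, with mean counts of 10.9, 10.7 and 10.1. Just outside lay Zfp27 at 9.42 and both Zfp169 and Zfp692 at 9.25.

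The livers came from male C57BL/6 mice with free access to food. Wild-type animals ate chow (chow 1, chow 2 and chow 3) or a ketogenic diet for 24 h (keto 1 and keto 2), and 1 chow-fed animal carried the eIF4E S209A/S209A genotype (S209A). In that genotype the serine of the cap-binding protein eIF4E that is phosphorylated by the MNK kinases is replaced by alanine on both alleles. Each liver was separated on a sucrose gradient and gave 1 heavy and 1 light polysome library, for a comparison of well translated with poorly translated mRNA and of the diets and genotypes. The labels name the pools heavy and light without saying which range of fractions each holds, and the direction of every heavy over light value rests on those names. Titles call chow 3 and S209A fed, and the other animals chow or keto. The count files of chow 3 and S209A name HISAT2, those of chow 1 and chow 2 name Bowtie2, and those of the keto animals name no aligner, so diet and processing cannot be told apart in full. The tissue was whole liver, in which fewer cells of a type and less RNA per cell cannot be told apart. The 10 hepatocyte markers summed to between 4932 and 15854 CPM, a count scaled by the depth of its library, in every library of the wild-type animals, while the 8 lymphocyte markers summed to at most 2.82 CPM.

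Most Zfp proteins carry arrays of C2H2 zinc fingers, small domains in which cysteine and histidine residues hold a zinc ion and which read DNA or RNA. Many of them also carry a KRAB domain, which recruits the corepressor Trim28 and, through it, the histone methyltransferase Setdb1 to silence retroelements and other targets. The family has grown by tandem duplication, and many of its genes lie in clusters. Other Zfp proteins have no KRAB domain and act as transcription factors, ubiquitin or SUMO ligases, mRNA decay factors or ribosome-associated proteins. Their mRNAs are usually of low abundance.

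The members were spread over 19 chromosomes, and chromosome 7 held the most. It carried 23 members (21.7%), against 90 of all 360 Zfp genes (25%) and 9.36% of all nuclear protein-coding genes. Of the 193 Zfp genes with another Zfp gene as a direct neighbour, 37 were members (19.2%), and of the 167 without one, 69 were members (41.3%). The median mean count over all Zfp genes of these classes, members or not, was 2.92 and 6.67. Both are descriptions, since the mean count is the value that chose the members. The neighbours were judged by symbol alone, so that a zinc finger gene with a predicted-gene name was not counted as one. The bodies of 42 members overlapped another annotated gene, of which 19 overlapped a protein-coding one, and reads of such pairs may have been split between them.

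Promoters of 4 members that recur in the results below are shown, because these genes had the lowest p or the most steady direction of a comparison and their promoters differ in base composition. Each is the 250 bases before a RefSeq start on GRCm38.p6, 5′ to 3′ on the gene's strand. Matches to an ETS motif (CCGGAAG) or a YY1 motif (AAGATGGCG), on either strand, are in capitals. The Zfp746 stretch lies wholly inside the gene's annotated body (chr6:48062391-48086986), before an internal start. Zfp91 lies at chr19:12796124-12796373 on the minus strand, Zfp746 at chr6:48086594-48086843 on the minus strand, Zfp207 at chr11:80383029-80383278 on the plus strand and Zfp970 at chr2:177464492-177464741 on the plus strand.
Zfp91: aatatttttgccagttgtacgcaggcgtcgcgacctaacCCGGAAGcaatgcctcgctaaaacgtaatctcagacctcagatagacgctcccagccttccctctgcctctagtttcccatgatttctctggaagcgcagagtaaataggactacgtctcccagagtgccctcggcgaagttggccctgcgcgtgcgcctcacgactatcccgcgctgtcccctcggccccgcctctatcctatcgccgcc
Zfp746: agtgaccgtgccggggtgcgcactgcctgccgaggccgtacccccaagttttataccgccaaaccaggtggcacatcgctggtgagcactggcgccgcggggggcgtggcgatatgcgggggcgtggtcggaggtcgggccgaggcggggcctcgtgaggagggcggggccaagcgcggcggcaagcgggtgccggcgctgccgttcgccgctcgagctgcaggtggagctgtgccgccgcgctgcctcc
Zfp207: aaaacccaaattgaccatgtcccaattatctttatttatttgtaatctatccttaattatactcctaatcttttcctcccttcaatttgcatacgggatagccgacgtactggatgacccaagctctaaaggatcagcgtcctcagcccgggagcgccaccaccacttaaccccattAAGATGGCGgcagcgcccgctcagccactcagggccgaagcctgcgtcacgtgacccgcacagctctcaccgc
Zfp970: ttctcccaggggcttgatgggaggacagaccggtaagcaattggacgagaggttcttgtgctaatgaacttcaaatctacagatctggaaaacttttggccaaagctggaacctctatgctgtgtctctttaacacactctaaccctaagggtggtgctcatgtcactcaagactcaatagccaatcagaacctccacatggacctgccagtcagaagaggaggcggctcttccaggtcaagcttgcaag
The Zfp91 stretch held an ETS match whose first base lay 211 bases before the start, and the Zfp207 stretch a YY1 match at 73 bases. Neither motif's letters stood in the Zfp746 and Zfp970 stretches, which says nothing of the factors. The Zfp970 stretch had 3 CpG dinucleotides and 49.2% G and C, against 33 and 74% for Zfp746, 22 and 58% for Zfp91 and 14 and 51.2% for Zfp207.

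RefSeq windows of 250 bases before to 50 after a start were found for 83 of the 106 members, 107 windows in all. The ETS motif was in 16.8% of the member windows and in 18% of the windows of all nuclear protein-coding genes with a mean of at least 10 counts. The YY1 motif was in 4.67% and 3.49%, and the SP1 motif GGGCGG in 57% and 63%. These shares lay close together, and matches of different motifs may overlap. Members beside another Zfp gene had a median G and C content of 54.3% and a CCAAT motif in 48.5% of windows, and members without such a neighbour had 60.7% and 33.8%.

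Zfp mRNAs were a minor fraction of each library. Library totals ran from 3341046 to 13263355 counts, and the 106 members together held from 1312 counts (keto 2 light) to 5725 (chow 3 heavy). The member count of the median gene was 8 in keto 2 light and 38.5 in chow 3 heavy, and 26 members were listed at 0 in at least 1 library. As a share of all nuclear protein-coding counts, the members took 0.279%, 0.254% and 0.322% in the heavy pools of chow 1, 2 and 3. The keto heavy pools had 0.457% and 0.478%, and the S209A heavy pool 0.298%. Light pools held 0.616%, 0.394% and 0.339% in chow, 0.401% and 0.368% in keto, and 0.203% in S209A. The keto heavy pools thus lay above every chow heavy pool, while the light pools of both diets overlapped. Chow 3 alone gave 28.5% of all member counts. In chow 3 and S209A, 79.4% to 83.6% of genes with 10 to 60 counts had an even count, against 54.7% to 63.9% in the other animals, so that their depth in molecules may be lower than the counts say. With the counts of every library divided by 2, an alternative chosen after seeing the data, no member passed in edgeR (0 in each comparison).

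The spread of single members over libraries was wide. The coefficient of variation of CPM over the 12 libraries, on counts scaled by TMM, had a median of 57.6% over the members, against 66% over all genes tested. The genes tested were not chosen by a mean of at least 10 counts, as the members were, so these medians are not matched for abundance. Zfp655 was the steadiest at 24%, with 3.46 to 7.77 CPM, followed by Zfp106 at 25.7% and Zfp598 at 27.8%. Zfp182 was the most variable at 115%, from 0 to 7.06 CPM, and it is also one of the least counted members.

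Heavy was compared with light in chow to ask which Zfp mRNAs sat in heavy polysomes. The members as a group had lower values than other genes: the median log2 value of heavy over light was −0.32, against −0.11 over all 11701 genes tested and −0.06 over the 7764 nuclear protein-coding genes with a mean of at least 10 counts. Of the members, 30 had values above 0 (28.3%) and 76 below, against 44.8% of all genes above 0. No member passed edgeR's quasi-likelihood test at an adjusted p of 0.05 (0 of 106, background 0.137% of genes), and the lowest adjusted p was 0.654. At an unadjusted p under 0.05, 1 member was higher and 4 were lower, against 6.28% of all genes in both directions. A value below 0 in all 3 animals was found for 23 members and above 0 for 7, against 15.6% and 11.2% of all genes.

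Zfp746 had the most steady value toward the heavy pool. It encodes PARIS, a repressor of Ppargc1a that the ubiquitin ligase parkin targets. Its heavy CPM was 7.9, 8.83 and 10.6 in chow 1, 2 and 3 and 8.12 and 9.42 in keto 1 and 2, and its light CPM was 1.56, 6.91 and 4.86 and then 6.07 and 3.18. Every wild-type heavy library lay above every wild-type light library. The S209A animal went the other way, with 5.58 CPM in heavy and 6.42 in light. The fitted value was 1.19 ± 0.54 (SE, n = 3 animals) in chow and 1.06 ± 0.43 as the mean of both diets (n = 5), with unadjusted p of 0.0282 and 0.0141 and edgeR adjusted p of 0.654 and 0.814.

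Zfp207 encodes BuGZ, a spindle and kinetochore protein that binds Bub3. Its heavy CPM was 5.93, 2.75 and 8.02 in chow and its light CPM 7.81, 15.1 and 9.88. Heavy lay below light in each chow animal, by 0.38, 2.35 and 0.29 on the log2 scale, so that most of the difference came from chow 2, and the 2 pools of the chow group overlapped. The keto animals had 11.4 and 11.7 CPM in heavy and 11.8 and 12.7 in light, nearly equal. The fitted chow value was −1.004 ± 0.48 (SE, n = 3), with an edgeR adjusted p of 0.712.

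Zfp281, a transcription factor studied in pluripotent cells, had 5.68, 4.92 and 6.03 CPM in the chow heavy pools and 9.72, 13.7 and 10.1 in the light pools. The 2 pools of chow did not overlap, and the fitted value was −0.99 ± 0.49 (SE, n = 3; edgeR adjusted p = 0.743). In keto 1 the order was turned, with 8.9 in heavy and 4.17 in light, and in keto 2 the values were 5.58 and 7.06. Zfp282 had 0.247, 0.868 and 1.25 CPM in the chow heavy pools and 6.94, 2.88 and 2.35 in the light ones, with a value of −2.11 ± 1.01 (edgeR adjusted p = 0.71). Its heavy values rest on few reads. The other members named by the same criteria had smaller or less certain values: Zfp451, a SUMO ligase, at 0.88, Zfp865 at 0.96 and Zfp319 at 0.91 toward the heavy pool, and Zfp260 at −1.81 toward the light pool.

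**Figure D1:**
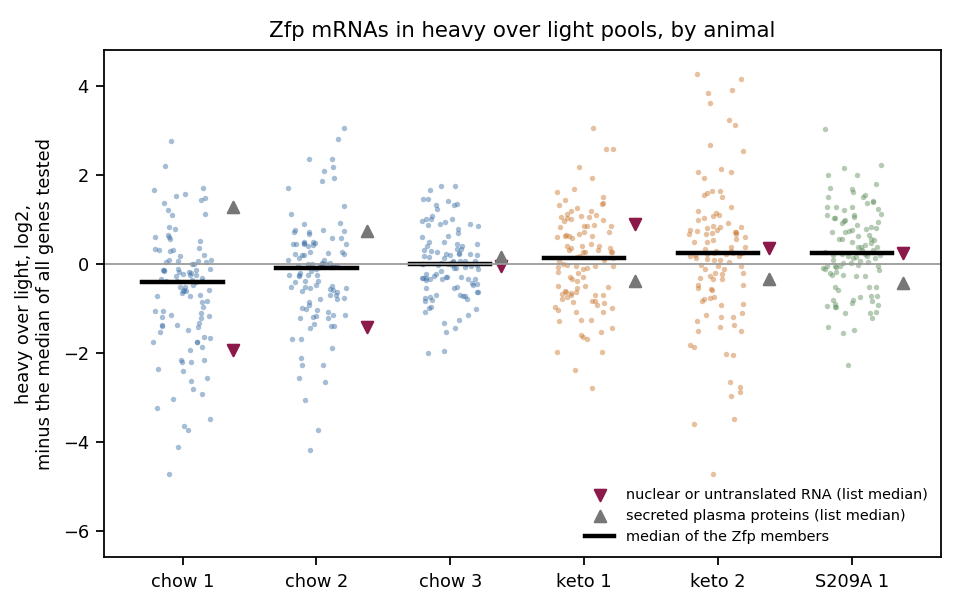
Heavy over light (log2, minus the median of all genes tested) for the 106 Zfp members in each of the 6 animals; each dot is 1 member, black bars are member medians, and triangles are the medians of 12 nuclear or untranslated RNAs (pointing down) and 33 secreted protein mRNAs (pointing up). The member median runs from −0.41 in chow 1 to 0.24 in S209A, and the dots of every animal spread over both sides of 0.

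Animal by animal, relative to the median of all genes tested, the member median was −0.41 in chow 1, −0.10 in chow 2 and −0.01 in chow 3, and 0.12 in keto 1, 0.23 in keto 2 and 0.24 in S209A. Chow 1 thus carried most of the chow value, and chow 3 lay at the level of all genes. Without chow 1, the chow median was −0.14 against −0.07 over all genes. Other RNA differed between the animals as well: 12 nuclear or untranslated RNAs such as Malat1 and Neat1 had medians of −1.94, −1.42 and −0.04 in chow 1 to 3, 0.90 and 0.35 in keto and 0.25 in S209A. The mRNAs of 33 secreted plasma proteins had 1.27, 0.72 and 0.16 in chow, −0.39 and −0.35 in keto and −0.44 in S209A. Their part in the Zfp values was not tested.

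In keto, the members were divided. The median of heavy over light was 0.15, against 0.03 over all genes tested. Above 0 lay 57 members (53.8%) and below 49, against 51.9% of all genes above 0. No member passed edgeR's test (0 of 106, background 0.162%), and the lowest adjusted p was 0.962. At an unadjusted p under 0.05, 2 members were higher and 1 was lower, against 3.88% of all genes. Both animals gave a value above 0 for 31 members and below 0 for 18, against 24.7% and 22.1% of all genes. With 2 animals, 1 direction in each is a weak requirement.

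Zfp970 had the lowest p of the keto comparison. It lies on chromosome 2 between the predicted genes Gm14410 and Gm14322, and reads of near copies could be shared, so its counts are uncertain. Its heavy CPM was 19.5 in keto 1 and 7.11 in keto 2, against 7.4 and 1.41 in light. The chow animals had 3.7, 6.66 and 9.42 in heavy and 10.4, 7.05 and 4.55 in light, with no common direction. The keto value was 1.75 ± 0.69 (SE, n = 2; unadjusted p = 0.011; edgeR adjusted p = 0.962).

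Zfp629 had 7.5 and 4.61 CPM in the keto heavy pools and 3.41 and 0 in the light pools, with a fitted value of 2.29 ± 1.06. Zfp384 had 1.87 and 1.92 CPM in heavy and 6.45 and 6.00 in light, a value of −1.71 ± 0.76, and both keto animals were close to each other. Neither passed (edgeR adjusted p of 1 for both). Further members toward the heavy pool were Zfp275 at 2.80 and Zfp704 at 1.46. Those toward the light pool were Zfp317 at −2.29, Zfp750, a regulator of epidermal differentiation, at −1.95, and Zfp148, a repressor and activator also named ZBP-89, at −0.998. Zfp750 had a count of 0 in keto 2 heavy, and its values by animal were −0.49 in keto 1 and −3.49 in keto 2.

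The mean of both diets cancelled most of this. The member median was −0.10 against −0.02 over all genes, and without chow 1 it was 0.01. Above 0 lay 45 members (42.5%) and below 61, against 49% of all genes above 0. No member passed edgeR's test (0 of 106, background 0.137%), and at an unadjusted p under 0.05 there was 1 in each direction, Zfp746 and Zfp384, against 4.4% of all genes. All 5 wild-type animals had heavy above light for 2 members, Zfp746 and Zfp319, and below for 4, Zfp207, Zfp236, Zfp68 and Zfp326, against 2.89% and 3.2% of all genes. Zfp236 gave the firmest of the latter, −0.69 ± 0.35 (SE, n = 5; edgeR adjusted p = 1).

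The difference between the diets in heavy over light was tested directly. The member median was 0.50 higher in keto, against 0.18 over all genes. Above 0 lay 67 members (63.2%) and below 39, against 54.9% of all genes above 0. None passed edgeR's test (0 of 106, background 0.171%; lowest adjusted p 0.848), and an unadjusted p under 0.05 was found for 3 that were higher and 1 that was lower, against 5.51% of all genes. Both keto animals lay above all 3 chow animals for 16 members and below for 2, against 13% and 9.55% of all genes. Without chow 1 the median was 0.26 against 0.14 over all genes. The members with a p under 0.05 were Zfp282 at 3.56 ± 1.67, Zfp629 at 2.82 ± 1.35, Zfp970 at 1.86 ± 0.87 and, downward, Zfp36 at −1.76, the last with overlapping diets. Without overlap but above that p were Zfp704 at 2.01 ± 1.13, Zfp750 at −2.47 ± 1.37 and Zfp384 at −1.49 ± 0.96. In keto 2, Zfp282 and Zfp629 had a light count of 0 and Zfp750 a heavy count of 0. The sizes of the values of these genes thus depend on the prior count of the fit.

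**Figure D2:**
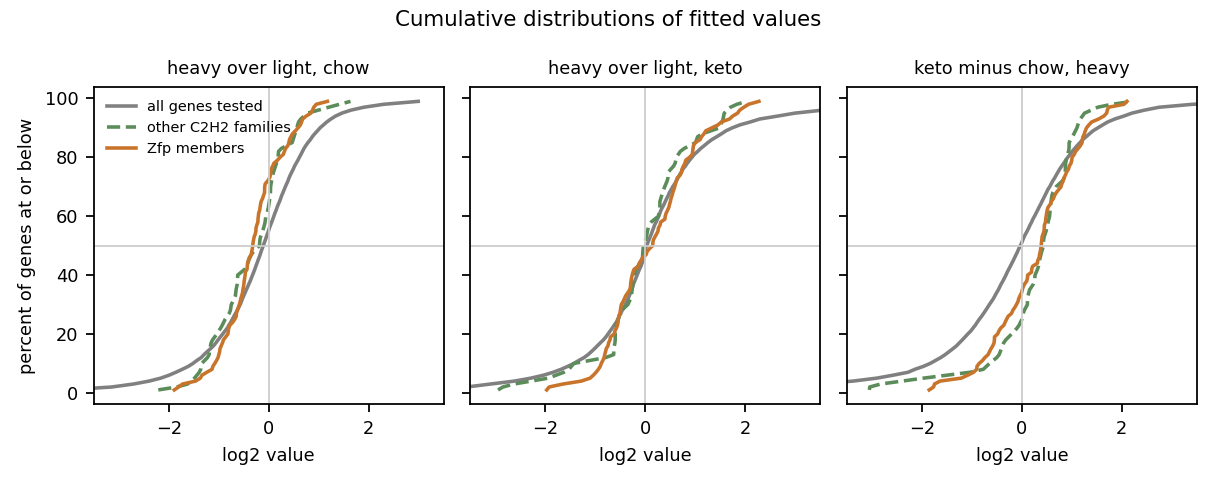
Cumulative distributions of fitted log2 values for the Zfp members (orange), 41 genes of other C2H2 families (green, dashed) and all genes tested (grey), for heavy over light in chow, heavy over light in keto, and keto minus chow in the heavy pool; the y axis is the percent of genes at or below a value. In the first panel the members lie left of all genes around the median (−0.32 against −0.11). In the third they lie right of them (0.39 against −0.03). The tails of the members are shorter, but all genes tested are far more numerous and were not chosen by mean count.

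Members were also grouped by what their proteins do. The RNA and translation list had 11 genes, of which 9 were members. Their heavy over light median was −0.50 in chow and −0.29 in keto, with 7 of 9 and 6 of 9 below 0, and none passed. Zfp598, the ubiquitin ligase that recognises collided ribosomes, was among the steadiest members, with 6.67, 11.3 and 6.62 CPM in the chow heavy pools, 8.75 and 12.1 in keto heavy, 10.8, 10.1 and 11.3 in chow light and 15.9 and 9.88 in keto light. Its heavy and light pools overlapped in both diets. Zfp622, a maturation factor of the large ribosomal subunit, had chow values of 6.91, 13.7 and 8.76 in heavy and 7.81, 6.47 and 15.5 in light, again with overlap.

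Zfp106, an RNA-binding protein needed by motor neurons, was the most counted member, with a mean of 186 counts. Its heavy CPM was 17.5, 21 and 26.8 in chow, 38.1 and 26.9 in keto and 23.8 in S209A, and its light CPM was 27.9, 23.2 and 26.2, then 36.4 and 22.9, and 16.1. Both keto heavy values lay above the chow ones, the lower of them by a small margin, and the light values overlapped.

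Zfp36 encodes tristetraprolin, which binds AU-rich elements and promotes decay of mRNAs such as those of cytokines. Its heavy pools had 12.8, 8.25 and 8.46 CPM under chow, then 2.19 and 12.1 under keto. Its light pools had 1.74, 8.78 and 6.98 CPM under chow, then 9.48 and 10.6 under keto. Chow 1 light and keto 1 heavy stood low, and the remaining libraries lay between 6.98 and 12.8. Heavy over light was thus 2.71 in chow 1 and −1.99 in keto 1, and between −0.28 and 0.27 in the other 4 animals. Its close relatives carry a letter in their symbol and were no members: Zfp36l1 had a heavy over light value of 0.82 ± 0.31 over both diets (SE, n = 5; unadjusted p = 0.00742; edgeR adjusted p = 0.684). Zfp36l2 had 0.05 ± 0.39 over both diets, made of 0.99 in chow and −0.89 in keto, and its difference between diets was −1.88 ± 0.78 (unadjusted p = 0.0156; edgeR adjusted p = 0.741).

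Of 24 listed transcription and chromatin genes, 19 were members. Their heavy over light median was −0.31 in chow, with 14 of 19 below 0, and 0.04 in keto, with 9 of 19 below 0. Zfp131 had the lowest chow value, −1.89: its heavy pools had 0.494, 0 and 2.94 CPM in chow 1, 2 and 3 and its light pools 3.3, 2.16 and 2.67. The first 2 animals held nearly no reads in heavy, and chow 3 had equal pools. Zfp410, an activator of Chd4, had 1.48, 2.32 and 3.24 CPM in chow heavy and 5.9, 4.46 and 1.57 in chow light, with a chow value of −0.57 and a keto value of 0.65.

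The list of silencers of retroelements and imprinted genes had 6 genes, and 3 were members. Zfp445, which acts at imprinted regions, had 6.42, 11.9 and 9.27 CPM in chow heavy, 12.5 and 19.2 in keto heavy, 15.4, 15.2 and 9.34 in chow light and 14.2 and 8.83 in keto light. The keto heavy pools lay above the chow ones, while the light pools overlapped. Zfp568, a repressor of a placental Igf2 promoter, and Zfp809, which silences proviruses, gave chow heavy over light values of −0.41 and −0.69. All 3 fitted values lay below 0 in chow, although Zfp568 had 0.61 in chow 3. In keto the fitted value of Zfp568 alone lay below 0, at −0.54. Its keto animals went opposite ways, with 1.5 in keto 1 and −2.67 in keto 2. Zfp445 and Zfp809 also changed sign between the keto animals, below 0 in keto 1 and above 0 in keto 2.

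Keto was compared with chow in the heavy pool to ask whether the diet moved Zfp mRNAs there. The member median was 0.39, against −0.03 over all genes tested and −0.05 over the nuclear protein-coding genes with a mean of at least 10 counts, and 70 members lay above 0 and 36 below. No member passed edgeR's test (0 of 106, background 0.0513%), and the lowest adjusted p was 0.543. At an unadjusted p under 0.05, 2 members were higher and 0 lower, against 8.15% of all genes. Both keto animals lay above all chow animals for 17 members and below for 6, against 14.2% and 12.4% of all genes. Relative to all genes and to the chow mean, the member median was 0.25 in keto 1 and 0.32 in keto 2, and −0.01 to 0.04 in the chow animals. The chow animals made up that reference and the keto animals did not, so the chow values lie around 0 by construction. The median difference between members and all genes was 0.42, and it was 0.18 with limma-voom and 0.30 without chow 2. The 12 nuclear or untranslated RNAs were higher in the same pools, with a median of 2.58 and summed levels of 11045 and 13031 CPM in keto against 1524 to 2715 in chow, and the secreted protein mRNAs had a median of −0.98. Summed hepatocyte markers were 5860 and 6657 CPM in the keto heavy pools against 9407 to 15854 in chow. Stellate cell markers were 39 and 48.7 CPM against 63.1 to 81.7, and cholangiocyte markers 1.09 and 2.11 CPM against 4.12 to 13.3, while the ranges of the other cell type lists overlapped. Their part in the Zfp values was not tested.

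Zfp91 had the lowest p in both pools. It encodes a ubiquitin ligase that stabilises the kinase NIK in the non-canonical NF-κB pathway, and its annotated body on chromosome 19 overlaps Lpxn and a predicted gene, so that reads may be shared. Its heavy CPM was 0, 1.16 and 1.77 in chow and 6.72 and 5.19 in keto, and the S209A animal had 0.62. Its light CPM was 1.04, 2.59 and 0.471 in chow, 8.34 and 2.82 in keto and 1.41 in S209A. The keto animals lay above all chow animals in both pools, clearly in heavy and in light only just for keto 2. The fitted values were 2.49 ± 1.05 in heavy and 2.08 ± 0.87 in light (SE, n = 2 against 3; unadjusted p of 0.0296 and 0.0303; edgeR adjusted p of 0.543 and 0.838).

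Zfp704 had 3.46, 2.32 and 1.77 CPM in chow heavy and 4.69 and 11.5 in keto heavy, a value of 1.71 ± 0.75 (edgeR adjusted p = 0.561). Zfp629, given above for keto, had 0.494, 2.89 and 1.99 CPM in chow heavy and a diet value of 1.71 ± 0.82 (edgeR adjusted p = 0.61). Zfp592, a partner of the chromatin reader Zmynd8, had 10.6, 6.66 and 4.56 in chow heavy and 16.2 and 15 in keto heavy, a value of 1.12 ± 0.57 (edgeR adjusted p = 0.639). The diets did not overlap for these 3 genes, but for each of them the range of the chow animals was wider than the gap between the diets. In the other direction, Zfp512 had 5.19, 2.17 and 2.35 CPM in chow heavy and 0.469 and 0.577 in keto heavy, with a value of −2.58 ± 1.28 (edgeR adjusted p = 0.632). Zfp707 followed at −1.77, where chow 2 at 14.3 CPM stood far above the other libraries, and Zfp212 at −1.25 and Zfp318 at −0.65.

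Zfp131 was the only member called in any of the settings tried. In heavy pools it had 4.37 and 6.15 CPM in keto and, as given above, 0.494, 0 and 2.94 in chow, so that chow 3 decided its value. The value was 2.08 ± 1.13 with all animals (edgeR adjusted p = 0.678), 4.59 without chow 3 (edgeR adjusted p = 0.0696) and 4.57 ± 1.38 without chow 3 and S209A (edgeR adjusted p = 0.0486, n = 2 against 2). Its light values, 3.3, 2.16 and 2.67 in chow and 3.6 and 3.53 in keto, did not overlap either, with a fitted value of 0.39. It was singled out after its values were seen.

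**Figure D3:**
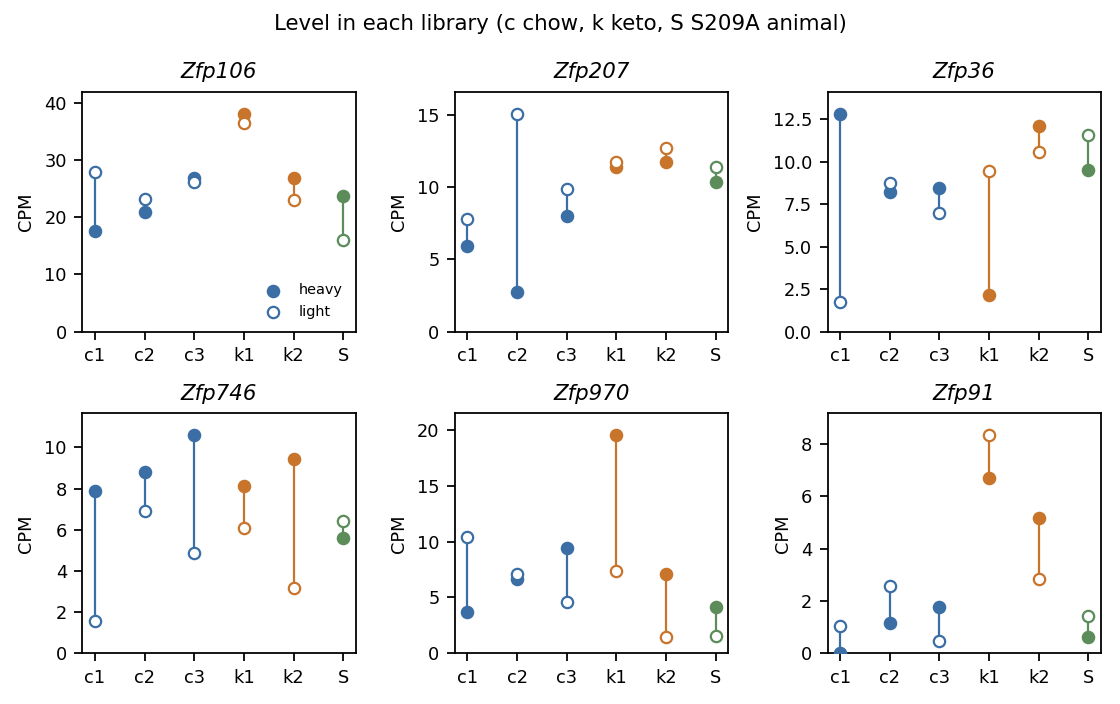
Level of 6 members (CPM on TMM-scaled counts) in every library; the x axis gives the animals (c chow, k keto, S S209A), filled circles are heavy pools, open circles light pools, and a line joins the pools of 1 animal. Zfp746 has heavy above light in all 5 wild-type animals, Zfp91 is highest in keto (6.72 and 5.19 CPM in heavy against 0 to 1.77 in chow), and Zfp36 shows 2 low libraries.

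In the light pool the diet values of the members lay near those of other genes. The member median was −0.13, against −0.16 over all genes tested, with 44 members above 0 and 62 below. No member passed edgeR's test, as for every gene (0 of 106, background 0%), and the lowest adjusted p was 0.838. At an unadjusted p under 0.05, 1 member was higher, Zfp91, and 1 was lower, Zfp407, against 5.87% of all genes. The diets did not overlap for 11 members that were higher and 10 that were lower, against 10.7% and 14% of all genes. Without chow 3 the member median was −0.33 against −0.09 over all genes, so that the place of the members against other genes depended on that animal. Erythroid markers were the one cell type list that stood apart in the keto light pools, at 36.4 and 93.5 CPM summed against 6.9 to 16.4 in chow, and its part was not tested.

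Other members stood apart between the diets in the light pool. Zfp652 had 6.77, 6.91 and 4.08 CPM in the chow animals and 12.7 and 11.6 CPM in the keto animals, with no overlap and a value of 1.04 ± 0.53 (edgeR adjusted p = 0.839). Zfp292 had 16.3, 4.75 and 7.53 in chow and 4.74 and 2.47 in keto, a value of −1.36 ± 0.68 (edgeR adjusted p = 0.839), with chow 1 high and chow 2 next to keto 1. The others were Zfp317 at 1.43 and Zfp213 at 1.48 above chow, and Zfp281 at −1.03, Zfp282 at −1.75 and Zfp62 at −1.66 below. Across both pools, 29 members had diet values above 0 in both, 21 below 0 in both, 41 above 0 in heavy and below in light, and 15 the reverse. The shares of all genes in these classes were not computed, so the counts are a description. Taken pool by pool, 48.6% of all genes lay above 0 in heavy and 43.2% in light, against 66% and 41.5% of members.

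**Figure D4:**
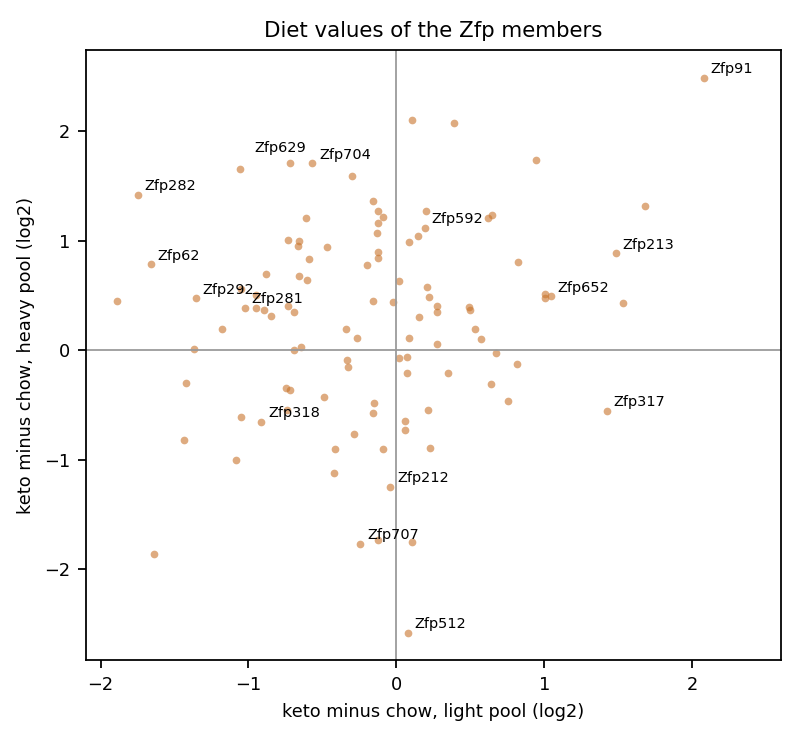
Fitted diet values (keto minus chow, log2) of the 106 Zfp members, with the light pool on the x axis and the heavy pool on the y axis; labels mark the members named by the selection rule for either pool. More dots lie above the horizontal line (70) than below it (36), and Zfp91 stands in the upper right corner at 2.08 and 2.49.

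Whether clustered members behaved like solitary ones was described by their medians. The 37 members beside another Zfp gene had a heavy over light median of −0.33 in chow and 0.31 in keto, and the 69 others −0.31 and −0.13. The diet value in the heavy pool was 0.37 and 0.40 in these classes, and in the light pool −0.24 and −0.09. In keto 1 the clustered members had a median of 0.40 relative to all genes and the others −0.08, while in keto 2 they had 0.25 and 0.23. The gap between the classes in keto thus came from 1 animal.

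Members were also divided by abundance. The 53 members with the higher mean counts and the 53 with the lower had chow medians of −0.32 and −0.31 and heavy pool diet values of 0.34 and 0.43. Their keto heavy over light medians were 0.04 and 0.15, and their medians for the difference between diets 0.40 and 0.66. The 19 members with a mean of at least 50 counts had a heavy pool diet median of 0.21, against −0.07 over all genes at that mean. By animal, the more counted members had −0.03 in keto 1 and the less counted 0.07 in chow 3, so that the sign of the median in those animals depended on the members taken.

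Partners of the KRAB domain were set beside the members. Of 23 listed genes, 22 were tested, and none passed in any of the 6 comparisons (edgeR, 0 of 22 each). Their median was −0.23 in chow and −0.21 in keto for heavy over light, and −0.28 in heavy and −0.22 in light for keto minus chow. In the heavy pool 9 were above 0 and 13 below, against 70 and 36 of the Zfp members. Trim28, the corepressor itself, had diet values of −0.09 ± 0.61 in heavy and 0.23 ± 0.54 in light, and Setdb1 had −1.13 ± 0.87 and −0.20 ± 0.69. A set of 41 genes of other C2H2 families, the Klf, Zbtb, Zscan, Zkscan and Zik symbols with digits, had a heavy pool diet median of 0.43, with 30 above 0 and 11 below. It had chow and keto heavy over light medians of −0.18 and −0.04, and none of its genes passed.

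The S209A animal was compared with the chow animals in each pool. With 1 animal there is no test, and a member was counted where it differed by at least 2-fold (log2 1) from every chow animal on the log2 CPM scale with a prior count of 2. In the heavy pool the member median against the chow mean was 0.04. There 1 member was counted as higher, Zfp180, and 2 as lower, Zfp219 and Zfp512, against 3.32% and 2.76% of all genes. Zfp180 had 3.93 CPM against 0.988, 0.289 and 1.62 in chow, and Zfp219 had 1.45 against 11.6, 13.3 and 3.97.

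In the light pool more members were counted as lower in S209A than in the heavy pool, as were more of all genes (10.1% against 2.76%). The median over all genes was not taken for the S209A differences of either pool. The median against the chow mean was −0.38, with 1 member counted as higher, Zfp146, and 17 as lower (16% of members), against 3.87% and 10.1% of all genes and 8.77% lower among nuclear protein-coding genes with a mean of at least 10 counts. Zfp609, a large nuclear protein of the transcription list, had 2.31 CPM in S209A against 17.9, 12.7 and 9.02 in chow light, and 11.7 against 13.1, 3.04 and 8.39 in heavy. Zfp318 had 3.85 against 18.2, 13.8 and 9.96 in light, and 9.4 against 6.42, 7.09 and 7.8 in heavy. Both were low in the light pool alone. Zfp182, Zfp213 and Zfp790 were listed at 0 in S209A light, and the other lower ones were Zfp236, Zfp260, Zfp292, Zfp335, Zfp398, Zfp408, Zfp526, Zfp623, Zfp653, Zfp710, Zfp777 and Zfp970. Against chow 3 alone, whose header names the same aligner, 7 members were higher and 26 lower in light, and 11 and 15 in heavy, against 13.2% and 20.2%, and 11.9% and 13.8%, of all genes.

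**Figure D5:**
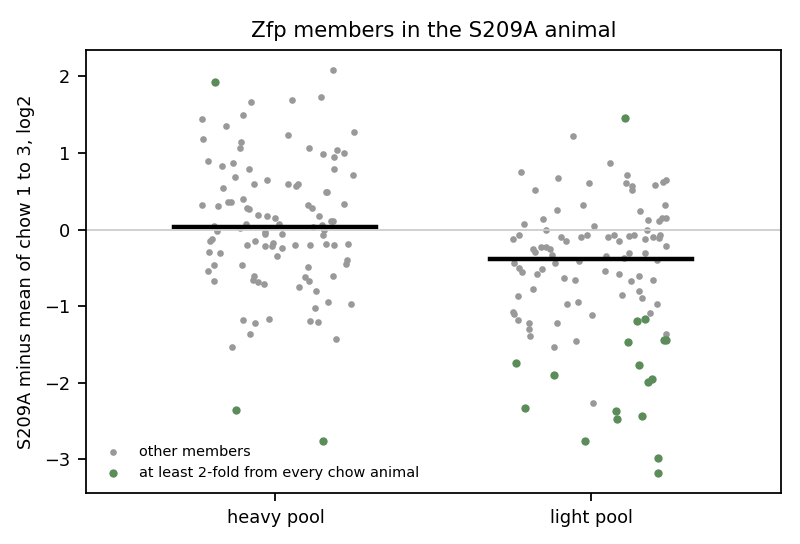
Difference of the S209A animal from the mean of chow 1 to 3 (log2 CPM) for the 106 Zfp members in the heavy and the light pool; green dots are members at least 2-fold from every chow animal, grey dots the others, and bars are medians. The heavy median is 0.04 with 3 green dots, and the light median is −0.38 with 18 green dots, 17 of them low.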

How the data were processed

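RNA of heavy and light polysome pools from 6 livers was sequenced, 12 libraries in all, from 10 ng of total RNA by a stranded low-input kit, per the labels' protocols. The authors deposited raw counts per Entrez gene ID, 1 file per library. Trimmomatic, HISAT2, StringTie and mouse build mm10 appear in the submitters' processing notes, while the count headers of chow 1 and chow 2 name Bowtie2, per the file headers. For the counting tool, its strand setting and its handling of multi-mapping reads, the sources used here give nothing. Antisense, overlapping and duplicated genes are therefore uncertain. Of 27179 IDs, 25275 were named through RefSeq (GRCm38.p6). Unused sample columns numbered 0.

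The members and gene lists were chosen with earlier results of these data known. Genes passed edgeR's filterByExpr (minimum count 10), which kept all 106 members, and libraries were scaled by TMM. Tests used edgeR 4.0.16 (R 4.3.3) quasi-likelihood fits, two-sided, adjusted by Benjamini-Hochberg over all genes tested at 0.05. Heavy over light came from 1 fit of 12 libraries, blocked by animal, and the diets were compared within each pool over its 6 libraries. The standard error is the size of the log2 value over the square root of F. The pairing of pools comes from the titles, and deviations of the 2 pools of an animal correlated at 0.287, 0.286, 0.441 and 0.06 in chow 1, 2, 3 and keto 1 across genes. Chow 3 differs from chow 1 and 2 in aligner and title wording, which enters the deviations of every chow animal. The chow correlations therefore cannot decide the pairing. Nothing in the labels says more of how animals were handled, and p-values measure the spread between these samples.

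In each comparison the text names, per direction, the 4 members with the smallest unadjusted p among those with 1 direction in every animal or no overlap of the diets. Zfp36 and Zfp407 were named beside a count of members at an unadjusted p under 0.05, and Zfp131 after its values were seen. It also names the members at the mean count threshold, the most counted ones, and the role and KRAB partner lists in part. DESeq2 1.42.0, limma-voom (limma 3.58.1), other scalings, filters, blocks and leaving out each animal were alternatives. The scripts were tested on simulated data.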

Additional observations from a re-analysis of the deposited data

Results flagged for a closer look

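In the wild-type animals the member median of heavy over light, relative to all genes tested, was −0.41, −0.10 and −0.013 in chow 1, 2 and 3, and 0.12 and 0.23 in keto 1 and 2. Every wild-type chow animal lay below 0 and both keto animals above it, and this difference of medians was not tested. The chow 3 value lay next to 0, and the chow-fed S209A animal had 0.24, above both keto animals. The sign also depended on the members taken: the 53 more counted members had −0.03 in keto 1, the 53 less counted 0.07 in chow 3, and the members with no Zfp neighbour −0.08 in keto 1.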

How the results depend on the processing

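The number of members called was 0 in all 6 comparisons with edgeR, and it was 0 under every alternative run, among them DESeq2, limma-voom, RLE size factors, other filters, no replicate block (0) and, for the diet comparisons, a replicate block on the numbers that chow and keto share (0). The exception was the diet comparison in the heavy pool without chow 3 and S209A, chosen after seeing the data, where 1 member passed. Leaving out 1 animal at a time gave 0 members each time. DESeq2 gave no adjusted p for 105 of 106 members in 3 comparisons. Same-numbered chow and keto animals shared a number only (r = −0.01 in heavy and −0.03 in light across genes). Relative to all genes, the member median ran over the alternatives from −0.38 to −0.07 for heavy over light in chow, 0.08 to 0.24 in keto, −0.17 to 0.02 for their mean, 0.12 to 0.61 for the difference of diets, 0.18 to 0.47 for keto minus chow in heavy and −0.25 to 0.20 in light. In S209A, 26 members in heavy and 33 in light were past 2-fold against chow 3 alone, in place of 3 and 18. Against chow 3 alone, 11.9% of all genes were higher and 13.8% lower in heavy, and 13.2% and 20.2% in light. The shares of members were 10.4% and 14.2% in heavy, and 6.6% and 24.5% in light. Depth limits single members: 79 of 106 had under 10 counts in some library.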
